A study of Mus musculus with 17 samples.

Results

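The livers described here carry the genotype label Nampt +/-, called Het, and make up 5 of the 17 livers sequenced. They were chosen by their labels alone, 3 from mice given acetaminophen (APAP) and 2 from mice given saline, and nothing measured entered the choice. RNA-seq of whole liver gave, for each gene, an FPKM value, which scales fragments by transcript length and library size. The series title asks what Nampt, the enzyme nicotinamide phosphoribosyltransferase, does in acute liver injury caused by APAP. The Het APAP group held 3 livers taken 24 hours after 200 mg/kg APAP, and the Het saline group held 2 livers taken 24 hours after saline. All 5 came from male mice of the C57BL/6 background aged 11 weeks. The labels name both intraperitoneal and intragastric routes for the series and mark 1 WT saline liver, kept as a group of its own, as intragastric. They give no route for these 5 livers and do not say which bases or exons the altered allele lacks or in which cells. Het APAP 1 and both Het saline livers were perfused and share lane L008, while Het APAP 2 and Het APAP 3 were not perfused and share lane L005. The livers set beside them were 3 WT APAP and 3 WT saline livers (Nampt +/+) and 2 OE APAP and 2 OE saline livers, OE being the label for Nampt overexpression, whose promoter the labels do not name. Their APAP dose was also 200 mg/kg, and all were taken 24 hours after injection. WT saline 1, WT saline 2 and OE APAP 2 came from mice aged 12 weeks, and the others set beside the Het livers from mice aged 11 weeks.

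At ordinary doses hepatocytes join acetaminophen to glucuronic acid or sulfate and excrete it. After an overdose, cytochrome P450 enzymes, foremost CYP2E1, oxidise more of it to the quinone imine NAPQI, which consumes glutathione, binds mitochondrial proteins and kills hepatocytes around the central vein, where that enzyme is concentrated. Surviving hepatocytes switch on acute phase, metal-binding and stress genes, and neutrophils and monocytes enter the injured zone. NAMPT makes nicotinamide mononucleotide from nicotinamide, the rate-limiting step of the salvage route to NAD, the coenzyme of oxidative metabolism and the substrate of sirtuins and PARPs.

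Nampt itself (chr12:32819545-32853349 on the plus strand of GRCm38) did not follow the label Het in either treatment. Its level was 15.4, 11.3 and 15.2 FPKM in Het APAP livers, against 26.0 and 23.0 FPKM in Het saline livers. The 3 WT saline livers had 18.0, 15.3 and 18.0 FPKM, so both Het saline livers were higher than every WT saline liver. The 2 OE saline livers had 22.4 and 27.2 FPKM, so Nampt did not separate the labels Het and OE under saline. Het and OE are therefore used below only as labels of these libraries. The value covers the whole gene, and whether the altered allele still gives a transcript was not tested. After APAP, Nampt fell in livers labelled Het (log2 difference -0.93 ± 0.27, adjusted p = 0.0267; limma with Benjamini-Hochberg adjustment over all genes tested). The WT APAP livers had 12.0, 10.9 and 16.7 FPKM, overlapping the Het APAP livers. The OE APAP livers had 36.0 and 18.5 FPKM, both above every Het APAP and every WT APAP liver.

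Liver markers were abundant in every library. Apoa1, the main protein of high-density lipoprotein, reached 4511, 4225 and 3889 FPKM in Het APAP livers, against 6340.3 and 5847 FPKM in Het saline livers. Hnf4a, the transcription factor that defines hepatocytes, had 69.7, 60.5 and 77.5 FPKM in Het APAP livers, against 82.9 and 76.8 FPKM in Het saline livers. Albumin (Alb) read 0 in each of the 17 libraries, and 27 protein-coding genes were listed at 0 in all 3 Het APAP livers while high elsewhere. Fga and Fgb (fibrinogen chains), Hpx (hemopexin) and Trf (transferrin) are among them. Hpx, for example, was at 0 in each Het APAP liver, against 2355 and 2158 FPKM in Het saline livers. Such zeros can be failed estimates, and these genes were left out. Summed FPKM ran from 466883 to 644278 in Het APAP livers and from 680991 to 690714 in Het saline livers, and 11213 to 11313 genes, against 10631 to 10775 genes, reached 1 FPKM. The number of reads behind a value is not known, because the table gives no counts. Nothing in the labels says that the livers came from separate mice, so p-values measure the spread between these samples. In whole liver, fewer cells of a type and less RNA per cell cannot be told apart.

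In livers labelled Het, APAP moved 2460 of 11090 genes tested past an adjusted p of 0.05, a share of 22.2%. Of these 1006 were higher (9.07% of genes tested) and 1454 were lower (13.1%), and 1264 changed at least 2-fold, 550 upward and 714 downward. The excess of lower genes depended on the processing. With quantile normalization 1091 were higher and 1127 lower, and with no filter 929 and 963. With library medians set equal 1034 were higher and 1416 lower, and with a mean of at least 5 FPKM 486 and 1300. The test compared log2(FPKM + 1) by limma in a fit of all 17 libraries with a term for perfusion, and every fold change below is on that scale, which understates the change of weakly expressed genes. The Het APAP libraries lay at 38.1, 63.3 and 56.4 on the leading principal component, which held 42.2% of the variance, and the Het saline libraries lay at -27.2 and -26.2. Over all genes tested, Het APAP and Het saline livers did not overlap for 58.6%, with 25.4% higher and 33.2% lower in every Het APAP liver.

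Perfusion and lane bear on each of these values. The fitted difference adds to the plain difference a part of the perfusion estimate. That estimate is drawn from the groups with both perfused and unperfused livers, Het APAP, WT saline, OE APAP and OE saline. In each of these groups perfusion also followed lane. The fitted difference was larger in size than the plain difference for 1512 of the 2460 genes and larger than in any single Het APAP liver for 530. Het APAP 1 and both Het saline livers, alike in perfusion and lane, give a difference free of the perfusion estimate but with no test. The same 3 libraries are in the fit that chose the genes, so the direction of this difference is no independent check. The median difference was 0.92 within the lane, 1.06 in the fit and 0.98 in the fit with no perfusion term for higher genes, and -0.82, -0.99 and -0.98 for lower genes. The 3 Het APAP livers were unequal, since Het APAP 1 was the lowest of the 3 for 528 of the 1006 higher genes and the highest for 942 of the 1454 lower genes. The count of genes that passed dropped to 890 without Het saline 1, to 904 without Het saline 2, and to 839 with lane in place of perfusion.

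**Figure D1:**
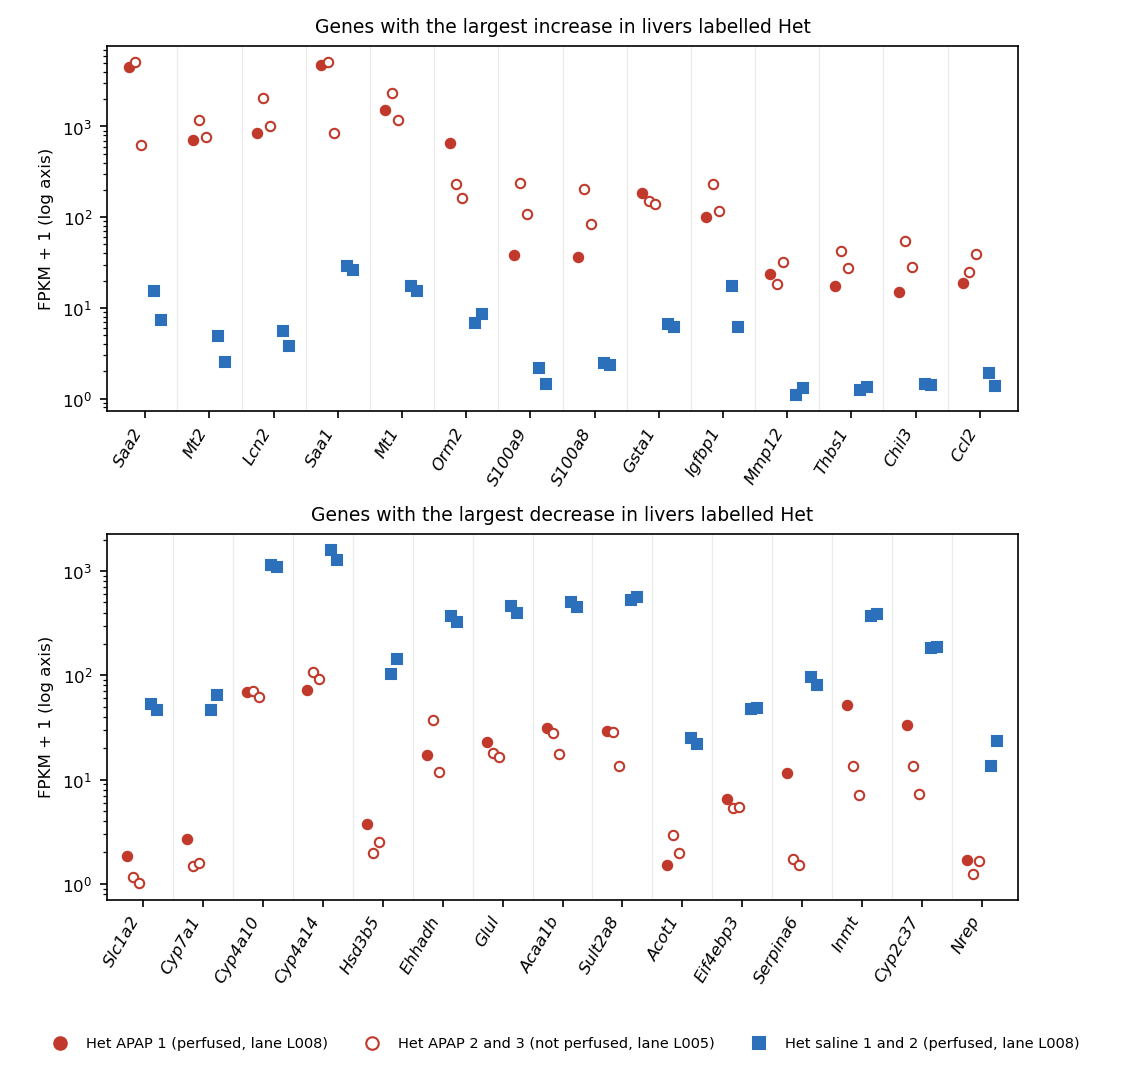
FPKM + 1 on a log axis for 14 of the 15 genes with the largest increase (top) and the 15 with the largest decrease (bottom), 1 point per liver, Het APAP as circles (filled for the perfused liver) and Het saline as squares. The genes were chosen for having no overlap, so the 3 circles lie to the same side of both squares in each.

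Secreted acute phase proteins, which hepatocytes release under inflammatory cytokines, were among the steepest increases. Of the 23 acute phase genes tested, 14 rose and none fell, with a median log2 difference of 2.29 and of 2.04 within the lane, against -0.06 and -0.03 over all genes tested. Saa2 and Saa1, serum amyloid A proteins carried on high-density lipoprotein, were among the most abundant transcripts of 2 of the 3 treated livers. Saa2 (chr7:46751790-46754313) had 4568, 5095 and 621 FPKM in Het APAP livers, against 14.5 and 6.36 FPKM in Het saline livers (log2 difference 9.80 ± 1.99, adjusted p = 0.0105, and 7.83 with no perfusion term). Saa1 had 4769, 5118 and 837 FPKM in Het APAP livers, against 27.8 and 25.1 FPKM in Het saline livers (log2 difference 8.72 ± 1.58, adjusted p = 0.00585, and 6.64 with no perfusion term). Het APAP 3 stayed far below the other Het APAP livers in both genes, and since the 2 copies are nearly identical the split of reads between them is uncertain.

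Lcn2, lipocalin 2, which binds bacterial siderophores, had 849.7, 2034 and 1002 FPKM in Het APAP livers, against 4.53 and 2.79 FPKM in Het saline livers (log2 difference 9.25 ± 1.79, adjusted p = 0.00862, and 8.04 with no perfusion term). Orm2, an orosomucoid that binds drugs in plasma, had 658, 230.4 and 164 FPKM in Het APAP livers, against 5.81 and 7.63 FPKM in Het saline livers (log2 difference 6.39 ± 1.20, adjusted p = 0.00667, and 5.26 with no perfusion term). There Het APAP 1 was the highest liver. Apcs, serum amyloid P, had 601, 1179.7 and 505 FPKM in Het APAP livers, against 65.0 and 57.7 FPKM in Het saline livers (log2 difference 4.15 ± 0.63, adjusted p = 0.00197, and 3.51 with no perfusion term). Each of these genes was separated between treated and control livers with no overlap. Proteins already abundant under saline rose less steeply. Fgg, the fibrinogen gamma chain, had 6372, 4831 and 4547 FPKM in Het APAP livers, against 1406 and 1347 FPKM in Het saline livers (log2 difference 2.49 ± 0.38, adjusted p = 0.00156). Hp, haptoglobin, had 7060.1, 5089 and 5153 FPKM in Het APAP livers, against 1757 and 1678 FPKM in Het saline livers (log2 difference 2.29 ± 0.45, adjusted p = 0.00472). Some members did not pass. Saa4, a constitutive serum amyloid, had 81.4, 37.9 and 80.5 FPKM in Het APAP livers, against 77.3 and 79.0 FPKM in Het saline livers. Crp, C-reactive protein, had 121, 105 and 115 FPKM in Het APAP livers, against 144 and 138 FPKM in Het saline livers. Hamp, the iron hormone hepcidin, had 1011, 399 and 1034 FPKM in Het APAP livers, against 1007 and 1191 FPKM in Het saline livers. The number of acute phase genes that passed was 12 without Het saline 1 and 9 without Het saline 2.

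Metallothioneins, small cysteine-rich proteins that bind zinc and copper and scavenge radicals, also rose steeply. Mt1 had 1525, 2357 and 1179 FPKM in Het APAP livers, against 16.3 and 14.3 FPKM in Het saline livers (log2 difference 7.32 ± 0.95, adjusted p = 0.00149, and 6.64 with no perfusion term). Mt2 had 701, 1170.1 and 761 FPKM in Het APAP livers, against 3.91 and 1.54 FPKM in Het saline livers (log2 difference 9.49 ± 1.63, adjusted p = 0.00529, and 7.92 with no perfusion term). All 3 treated livers lay far above both control livers in either gene. Among zinc transporters, Slc39a14, which carries zinc into hepatocytes during inflammation, had 78.4, 75.1 and 74.5 FPKM in Het APAP livers, against 44.8 and 40.4 FPKM in Het saline livers (log2 difference 0.80 ± 0.24, adjusted p = 0.0333). Slc39a1 had 52.6, 53.05 and 49.2 FPKM in Het APAP livers, against 32.3 and 32.7 FPKM in Het saline livers (log2 difference 0.83 ± 0.19, adjusted p = 0.0096). In all, 4 of the 9 genes of the list rose and none fell. Mtf1, the metal-sensing transcription factor, had 3.17, 5.48 and 4.41 FPKM in Het APAP livers, against 4.20 and 4.33 FPKM in Het saline livers. The median of the list was 0.05, near that of all genes tested, and 2 without Het saline 1 and 2 without Het saline 2 passed. The 2 promoters are shown because both genes rose and neighbour each other on chromosome 8, with capitals marking the core of the metal response element, TGCNCNC, read on both strands. They are the RefSeq windows of GRCm38.p6 from 250 bases before to 50 bases after the start, Mt2 at chr8:94172368-94172667 and Mt1 at chr8:94178839-94179138, both on the plus strand.
Mt2: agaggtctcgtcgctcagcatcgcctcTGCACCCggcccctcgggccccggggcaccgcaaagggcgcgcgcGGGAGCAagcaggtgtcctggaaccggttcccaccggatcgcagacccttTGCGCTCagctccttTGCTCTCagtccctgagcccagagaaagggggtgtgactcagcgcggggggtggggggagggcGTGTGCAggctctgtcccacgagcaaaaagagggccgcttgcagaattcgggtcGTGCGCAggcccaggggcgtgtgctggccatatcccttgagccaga
Mt1: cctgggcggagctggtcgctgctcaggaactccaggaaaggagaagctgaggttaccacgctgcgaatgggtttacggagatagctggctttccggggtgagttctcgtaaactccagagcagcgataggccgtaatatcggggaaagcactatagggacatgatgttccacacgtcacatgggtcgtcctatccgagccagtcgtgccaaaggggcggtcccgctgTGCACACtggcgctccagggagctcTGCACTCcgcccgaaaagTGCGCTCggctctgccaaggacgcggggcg
The Mt2 window held 6 matches and the Mt1 window 3. The core is short and was present in 51.0% of 32851 promoters, at least 6 times in 0.225% of them and at least 3 times in 7.10%. A match is a description of the letters and not evidence of binding.

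Genes of the integrated stress response, which follow ATF4 when translation is throttled by amino acid shortage or unfolded protein, mostly rose. Of 17 tested, 11 rose and 2 fell, with a median log2 difference of 1.46 and of 1.33 within the lane. Psat1, a serine synthesis enzyme, had 8.44, 9.92 and 8.38 FPKM in Het APAP livers, against 0.306 and 0.147 FPKM in Het saline livers (log2 difference 3.13 ± 0.23, adjusted p = 5.23e-05). Atf3, a stress-induced repressor, had 19.3, 39.9 and 29.5 FPKM in Het APAP livers, against 0.735 and 1.79 FPKM in Het saline livers (log2 difference 3.47 ± 0.41, adjusted p = 0.000703). Chac1, which degrades glutathione, had 3.86, 2.04 and 4.21 FPKM in Het APAP livers, against 0.503 and 0.366 FPKM in Het saline livers (log2 difference 1.80 ± 0.39, adjusted p = 0.00818). In each of these genes the lowest treated liver was several times the highest control liver. Trib3, a pseudokinase, had 2.81, 4.54 and 4.89 FPKM in Het APAP livers, against 0.905 and 0.446 FPKM in Het saline livers (log2 difference 1.46 ± 0.29, adjusted p = 0.00508). Asns, asparagine synthetase, had 5.26, 4.82 and 5.67 FPKM in Het APAP livers, against 1.76 and 0.655 FPKM in Het saline livers (log2 difference 1.79 ± 0.53, adjusted p = 0.0338). Both were higher in every treated liver than in either control liver. Cth, cystathionine gamma-lyase, which makes cysteine for glutathione, was 1 of the 2 that fell, with 49.8, 41.9 and 31.5 FPKM in Het APAP livers, against 218 and 270.4 FPKM in Het saline livers (log2 difference -2.75 ± 0.40, adjusted p = 0.00149). Fgf21, a fasting hormone, fell as well, with 0.443, 0.424 and 0.842 FPKM in Het APAP livers, against 3.86 and 2.41 FPKM in Het saline livers (log2 difference -1.65 ± 0.51, adjusted p = 0.0395). Ddit3, the pro-apoptotic factor CHOP, had 21.9, 28.2 and 24.3 FPKM in Het APAP livers, against 7.70 and 8.43 FPKM in Het saline livers. Its groups did not overlap, yet it did not pass (log2 difference 0.71 ± 0.71, adjusted p = 0.514, and 1.50 with no perfusion term). Atf4 had 54.1, 60.3 and 46.7 FPKM in Het APAP livers, against 52.6 and 55.0 FPKM in Het saline livers. The number that passed in the list was 10 without Het saline 1 and 7 without Het saline 2.

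Chac1, Trib3, Atf3 and Asns rose together, and their promoters are printed with the letters TGATGNAA, a core of the amino acid response element, in capitals on whichever strand it lies. The windows are RefSeq promoters of GRCm38.p6, Chac1 at chr2:119350992-119351291 (plus strand), Trib3 at chr2:152344011-152344310, Atf3 at chr1:191183284-191183583 and Asns at chr6:7693160-7693459 (the last 3 on the minus strand).
Chac1: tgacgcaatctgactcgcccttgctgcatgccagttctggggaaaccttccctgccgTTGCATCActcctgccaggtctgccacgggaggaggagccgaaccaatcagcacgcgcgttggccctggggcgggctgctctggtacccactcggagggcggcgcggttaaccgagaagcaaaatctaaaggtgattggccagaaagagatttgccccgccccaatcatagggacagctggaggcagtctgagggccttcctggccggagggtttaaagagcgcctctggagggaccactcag
Trib3: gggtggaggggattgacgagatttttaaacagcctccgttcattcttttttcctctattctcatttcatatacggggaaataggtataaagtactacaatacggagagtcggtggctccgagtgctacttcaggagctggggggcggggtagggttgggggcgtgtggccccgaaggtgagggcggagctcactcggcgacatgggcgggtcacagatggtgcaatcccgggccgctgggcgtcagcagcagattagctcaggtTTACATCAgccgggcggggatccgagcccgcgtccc
Atf3: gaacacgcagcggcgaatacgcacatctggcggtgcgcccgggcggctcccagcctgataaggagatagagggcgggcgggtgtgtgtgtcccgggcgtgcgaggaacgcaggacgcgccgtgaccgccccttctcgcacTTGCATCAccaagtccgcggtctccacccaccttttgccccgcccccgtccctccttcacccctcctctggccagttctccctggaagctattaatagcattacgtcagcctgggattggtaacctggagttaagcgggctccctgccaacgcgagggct
Asns: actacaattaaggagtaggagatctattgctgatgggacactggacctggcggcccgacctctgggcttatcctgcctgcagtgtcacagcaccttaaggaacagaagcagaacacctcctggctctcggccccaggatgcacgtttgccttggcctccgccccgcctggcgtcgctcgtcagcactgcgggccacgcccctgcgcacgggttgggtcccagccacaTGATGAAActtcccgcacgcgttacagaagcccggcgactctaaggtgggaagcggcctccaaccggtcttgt
The core occurred once in each, in none of the Ddit3 window, and in 3.97% of all 32851 promoters. The heat shock core TTCNNGAA, present in 8.52% of promoters, was in the window of Hsph1 and not in those of Hspa1a, Hspa1b or Dnajb1.

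Few ER chaperone genes passed. In the ER, 2 of 19 genes rose, Sdf2l1 and Pdia6, and 1 fell, Xbp1, the transcription factor of the unfolded protein response. These counts lie near or under the shares over all genes tested, 9.07% higher and 13.1% lower. With no perfusion term Pdia6 (limma, adjusted p = 0.123) and Xbp1 (adjusted p = 0.0678) did not pass. Sdf2l1, a cofactor of ER chaperones, had 112, 119 and 114 FPKM in Het APAP livers, against 49.0 and 58.0 FPKM in Het saline livers (adjusted p = 0.0353). Hspa5, the ER chaperone BiP, had 964, 823 and 949.6 FPKM in Het APAP livers, against 743 and 937 FPKM in Het saline livers. The list median was -0.01 in the fit, 0.10 with no perfusion term and 0.32 within the lane, so its direction depends on the libraries and terms used. In the cytosol and mitochondria, 2 of 19 heat shock genes rose and 7 fell. Hspa1a, the inducible HSP70, had 5.78, 8.06 and 6.55 FPKM in Het APAP livers, against 0.193 and 0.119 FPKM in Het saline livers (log2 difference 2.61 ± 0.41, adjusted p = 0.0018). Hsp90ab1, a constitutive HSP90, had 270.5, 194 and 267 FPKM in Het APAP livers, against 576 and 551 FPKM in Het saline livers (log2 difference -1.55 ± 0.44, adjusted p = 0.0249). Dnaja1, an HSP40 partner, had 47.6, 38.4 and 55.9 FPKM in Het APAP livers, against 126 and 143 FPKM in Het saline livers (log2 difference -2.11 ± 0.58, adjusted p = 0.0255, and -1.50 with no perfusion term). The inducible member was higher and constitutive members lower in all 3 treated livers. Hspa1b, a near-identical copy of Hspa1a, had 12.6, 21.2 and 18.2 FPKM in Het APAP livers, against 1.89 and 2.82 FPKM in Het saline livers and did not pass (adjusted p = 0.543). Without the perfusion term 2 heat shock genes rose and 1 fell, Ahsa1 (limma, adjusted p = 0.0132). Neither Hsp90ab1 (adjusted p = 0.0547) nor Dnaja1 passed there. Heat shock genes that passed numbered 2 without Het saline 1 and 2 without Het saline 2, against 9 with all libraries. The ER count ran from 0 to 3 over the libraries left out.

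Antioxidant genes controlled by NRF2 had a list median near 0, though more of those that passed rose than fell. Of 31 tested, 9 rose and 4 fell, with a median of -0.02, whose sign differs between alternatives. The share that rose lay above the 9.07% over all genes tested, and the share that fell lay near the 13.1%. Gsta1, a glutathione transferase, was the steepest, with 185, 149 and 138 FPKM in Het APAP livers, against 5.58 and 5.11 FPKM in Het saline livers (log2 difference 5.02 ± 0.66, adjusted p = 0.00149). Hmox1, heme oxygenase 1, had 36.0, 89.6 and 92.9 FPKM in Het APAP livers, against 6.87 and 7.44 FPKM in Het saline livers (log2 difference 2.91 ± 0.59, adjusted p = 0.0069). Pgd, an NADPH-making enzyme of the pentose phosphate route, had 16.0, 18.3 and 20.1 FPKM in Het APAP livers, against 3.28 and 3.61 FPKM in Het saline livers (log2 difference 2.09 ± 0.34, adjusted p = 0.00225). These genes stood well apart between groups. Nqo1, a quinone reductase often used as the marker of NRF2, did not, with 8.51, 5.86 and 3.06 FPKM in Het APAP livers, against 5.09 and 5.01 FPKM in Het saline livers. The subunits of the enzyme that opens glutathione synthesis did not pass either. Gclc, the catalytic one, had 70.0, 85.0 and 80.0 FPKM in Het APAP livers, against 71.4 and 72.6 FPKM in Het saline livers. Gclm, the modifier, had 81.0, 53.6 and 98.3 FPKM in Het APAP livers, against 115 and 112 FPKM in Het saline livers. The number that passed was 9 without Het saline 1 and 7 without Het saline 2.

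In the wider set of glutathione genes 3 of 34 rose and 13 fell, with a median of -0.53. Mat1a, which makes S-adenosylmethionine and so feeds cysteine synthesis, had 377, 343 and 176 FPKM in Het APAP livers, against 1644 and 1444 FPKM in Het saline livers (log2 difference -2.82 ± 0.51, adjusted p = 0.00325). Gnmt, the methyltransferase that consumes S-adenosylmethionine, had 237, 261 and 128 FPKM in Het APAP livers, against 740.1 and 760.2 FPKM in Het saline livers (log2 difference -1.96 ± 0.39, adjusted p = 0.0049). Gsta3, an abundant transferase, had 356, 243 and 115 FPKM in Het APAP livers, against 1068 and 1126 FPKM in Het saline livers (log2 difference -2.26 ± 0.49, adjusted p = 0.00796). Gsta1 and Gsta3 therefore moved in opposite directions, although members of this family share sequence and reads may be split between them. Gpx1, a glutathione peroxidase, had 489, 656 and 382 FPKM in Het APAP livers, against 1269.5 and 1019.9 FPKM in Het saline livers (adjusted p = 0.0188). Passing genes of the list numbered 10 without Het saline 1 and 10 without Het saline 2.

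Among the drug-metabolising P450 genes, 21 of 32 tested fell and none rose, with a median log2 difference of -1.50, and of -0.99 within the lane. Cyp2e1 had 462, 210.4 and 122 FPKM in Het APAP livers, against 2983 and 2974 FPKM in Het saline livers (log2 difference -3.91 ± 0.82, adjusted p = 0.00818). Cyp3a11, the main mouse CYP3A, had 170.2, 110.5 and 46.7 FPKM in Het APAP livers, against 1376 and 1619 FPKM in Het saline livers (log2 difference -3.60 ± 0.74, adjusted p = 0.00694). Cyp2c37 had 32.2, 12.5 and 6.26 FPKM in Het APAP livers, against 184 and 186 FPKM in Het saline livers (log2 difference -3.95 ± 0.94, adjusted p = 0.0165). Het APAP 1 kept the highest and Het APAP 3 the lowest level of all 3 genes among treated livers. Cyp1a2, which also oxidises acetaminophen, followed the same order, with 70.6, 12.5 and 7.77 FPKM in Het APAP livers, against 123 and 114 FPKM in Het saline livers. It did not pass with the perfusion term (log2 difference -1.68, adjusted p = 0.0755) and passed without it (log2 difference -2.55, adjusted p = 0.0328). Nr1i3, the drug-sensing receptor CAR, had 18.6, 13.8 and 8.10 FPKM in Het APAP livers, against 85.0 and 69.6 FPKM in Het saline livers (log2 difference -2.99 ± 0.67, adjusted p = 0.0122). The P450 count was 6 without Het saline 1 and 8 without Het saline 2, and a fit with lane replacing perfusion gave 7. Several of the Cyp2c and Cyp2d genes are close copies between which reads may be split.

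Of the conjugation genes 19 of 25 fell and 2 rose, with a median of -1.73 and of -1.55 within the lane. Ugt1a1, a UDP-glucuronosyltransferase of the family that clears acetaminophen and bilirubin, had 31.8, 19.3 and 20.1 FPKM in Het APAP livers, against 166 and 148 FPKM in Het saline livers (log2 difference -2.86 ± 0.46, adjusted p = 0.0023). Ugt2b1 had 28.4, 13.3 and 17.0 FPKM in Het APAP livers, against 189 and 194 FPKM in Het saline livers (log2 difference -2.98 ± 0.30, adjusted p = 0.000282). Sult2a8, a sulfotransferase that sulfates bile acids in mice, had 28.3, 27.6 and 12.4 FPKM in Het APAP livers, against 524 and 565 FPKM in Het saline livers (log2 difference -4.48 ± 0.48, adjusted p = 0.000434). Every treated liver lay far below both control livers in these 3 genes. The count of this list was 13 without Het saline 1 and 13 without Het saline 2.

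Genes of both hepatocyte zones fell. Among 18 pericentral genes, 10 fell and none rose, with a median of -1.61. Glul, glutamine synthetase, confined to the hepatocytes next to the central vein, had 22.1, 17.1 and 15.3 FPKM in Het APAP livers, against 466 and 399.7 FPKM in Het saline livers (log2 difference -4.73 ± 0.42, adjusted p = 0.000206). Slc1a2, a glutamate transporter of the same cells, had 0.84, 0.155 and 0.019 FPKM in Het APAP livers, against 51.9 and 45.3 FPKM in Het saline livers (log2 difference -5.36 ± 0.67, adjusted p = 0.00121). Oat, ornithine aminotransferase, had 68.3, 56.3 and 20.5 FPKM in Het APAP livers, against 552 and 538 FPKM in Het saline livers (log2 difference -3.70 ± 0.53, adjusted p = 0.0015). Expression of Slc1a2 was near 0 in Het APAP 3 and below 1 FPKM in all treated livers. Axin2, a Wnt target that was weak to begin with, had 1.09, 0.556 and 1.19 FPKM in Het APAP livers, against 2.63 and 1.22 FPKM in Het saline livers and did not pass. Among 21 periportal genes, 14 fell and 1 rose, with a median of -1.09. Etnppl, an ethanolamine phosphate lyase, had 4.28, 5.35 and 4.77 FPKM in Het APAP livers, against 51.4 and 56.7 FPKM in Het saline livers (log2 difference -3.55 ± 0.50, adjusted p = 0.00155). Asl, the urea cycle lyase, had 77.1, 91.2 and 50.05 FPKM in Het APAP livers, against 380.5 and 340.1 FPKM in Het saline livers (log2 difference -2.83 ± 0.45, adjusted p = 0.0018). Cyp2f2, the periportal P450, had 78.8, 55.1 and 74.5 FPKM in Het APAP livers, against 311 and 267 FPKM in Het saline livers (log2 difference -2.02 ± 0.28, adjusted p = 0.00119). Periportal genes that passed numbered 6 without Het saline 1 and 7 without Het saline 2.

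Fatty acid oxidation genes fell with 1 exception. Of 38 genes of mitochondrial and peroxisomal beta-oxidation and ketone body formation, 37 fell and none rose, with a median log2 difference of -1.90, and of -1.62 within the lane, and the exception was Acot2. The number of genes lower ranged from 31 to 37 over the libraries left out, was 35 with no perfusion term and 32 with lane in its place. Cyp4a10 and Cyp4a14, microsomal fatty acid hydroxylases, had the largest decrease in the fit, but with no perfusion term Acaa1b (-4.26) and Ehhadh (-4.15) lay below both. Cyp4a14 had 70.9, 107 and 91.9 FPKM in Het APAP livers, against 1581 and 1269 FPKM in Het saline livers (log2 difference -4.99 ± 0.79, adjusted p = 0.00243, and -3.98 with no perfusion term). Ehhadh, the peroxisomal bifunctional enzyme, had 16.0, 36.3 and 10.8 FPKM in Het APAP livers, against 371 and 324 FPKM in Het saline livers (log2 difference -4.76 ± 0.64, adjusted p = 0.00149, and -4.15 with no perfusion term). Acaa1b, peroxisomal thiolase, had 30.4, 26.9 and 16.7 FPKM in Het APAP livers, against 502 and 451 FPKM in Het saline livers (log2 difference -4.54 ± 0.61, adjusted p = 0.00138). Entry and transport genes moved the same way. Acsl1, which activates fatty acids with coenzyme A, had 40.2, 31.6 and 31.4 FPKM in Het APAP livers, against 339.5 and 315 FPKM in Het saline livers (log2 difference -3.39 ± 0.35, adjusted p = 0.000282). Cpt1a, the gate to the mitochondrion, had 35.5, 31.4 and 31.1 FPKM in Het APAP livers, against 94.0 and 80.8 FPKM in Het saline livers (log2 difference -1.43 ± 0.24, adjusted p = 0.00238). In both genes the 3 treated livers lay close together. Ppara, the nuclear receptor that drives most of these genes, had 29.1, 26.5 and 24.2 FPKM in Het APAP livers, against 65.1 and 56.4 FPKM in Het saline livers (log2 difference -1.29 ± 0.22, adjusted p = 0.00263). Several Cyp4a genes and Acot1 are near-identical to neighbours, and reads may be split between them.

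**Figure D2:**
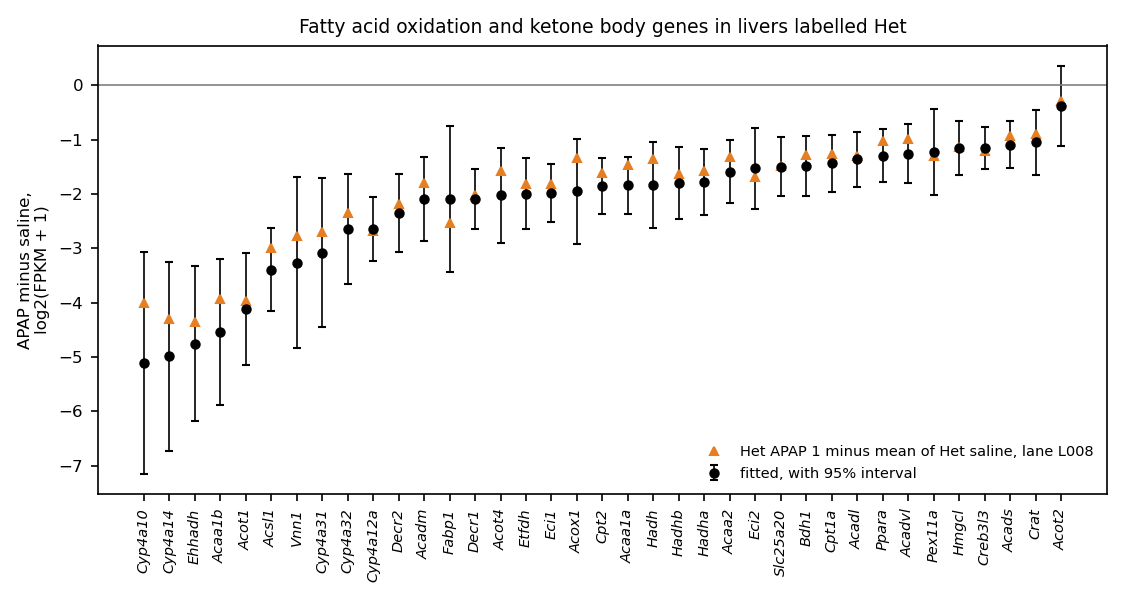
Fitted APAP minus saline difference on the log2(FPKM + 1) scale with its 95% interval (black) for 37 of the 38 genes of fatty acid oxidation and ketone body formation, and the difference within lane L008 (triangles). All black points but that of Acot2 mark genes that fell, and the triangles lie on the same side of 0.

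Other fuel routes fell with it. Of 32 amino acid catabolism genes, 25 fell and none rose, with a median of -1.31. Bhmt, betaine-homocysteine methyltransferase, had 288, 287 and 287 FPKM in Het APAP livers, against 1734 and 1898 FPKM in Het saline livers (log2 difference -2.96 ± 0.37, adjusted p = 0.000752). Hpd, a dioxygenase of tyrosine breakdown, had 315, 96.0 and 94.7 FPKM in Het APAP livers, against 1145 and 1166 FPKM in Het saline livers (log2 difference -2.88 ± 0.51, adjusted p = 0.00309). Bhmt was almost equal in the 3 treated livers, while Hpd was kept highest in Het APAP 1. Of 11 urea cycle genes 7 fell. Cps1, the entry enzyme, had 403, 284 and 220.4 FPKM in Het APAP livers, against 863 and 859 FPKM in Het saline livers (log2 difference -1.68 ± 0.38, adjusted p = 0.00979). Arg1, the closing enzyme, had 815, 1117 and 582 FPKM in Het APAP livers, against 826 and 726 FPKM in Het saline livers and did not pass. Of 16 glucose genes, 7 fell and 1 rose. Gys2, liver glycogen synthase, had 22.8, 9.26 and 11.9 FPKM in Het APAP livers, against 96.2 and 88.0 FPKM in Het saline livers (log2 difference -2.60 ± 0.49, adjusted p = 0.00483). Slc2a2, the GLUT2 transporter, had 49.2, 17.0 and 25.6 FPKM in Het APAP livers, against 149.9 and 139 FPKM in Het saline livers (log2 difference -2.25 ± 0.49, adjusted p = 0.00898). Pdk4, the pyruvate dehydrogenase kinase, was the gene that rose, with 1.63, 4.45 and 2.79 FPKM in Het APAP livers, against 0.59 and 0.577 FPKM in Het saline livers. Passing genes numbered 15 without Het saline 1 and 17 without Het saline 2 for amino acids, 4 without Het saline 1 and 4 without Het saline 2 for the urea cycle and 3 without Het saline 1 and 3 without Het saline 2 for glucose.

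Both pyruvate kinase genes were measured. Pkm, the form of most tissues other than liver, had 41.4, 76.5 and 82.8 FPKM in Het APAP livers, against 7.23 and 6.45 FPKM in Het saline livers (log2 difference 3.08 ± 0.58, adjusted p = 0.00517). Pklr, the hepatocyte form, had 15.6, 6.15 and 6.97 FPKM in Het APAP livers, against 23.4 and 26.3 FPKM in Het saline livers (adjusted p = 0.144). The increase of Pkm passed and the lower level of Pklr did not. Slc2a1, the GLUT1 transporter, also rose, with 7.02, 22.5 and 12.6 FPKM in Het APAP livers, against 2.53 and 2.36 FPKM in Het saline livers (adjusted p = 0.00942). Of the 11 hypoxia and glycolysis genes 2 rose, Pkm and Slc2a1, and 1 fell. That was Eno1, the glycolytic enolase, with 76.1, 122 and 113 FPKM in Het APAP livers, against 115 and 112 FPKM in Het saline livers (log2 difference -0.64 ± 0.19, adjusted p = 0.0285). Its groups overlapped, and with no perfusion term it did not pass (log2 difference -0.16, adjusted p = 0.759). With no perfusion term 4 genes of the list rose and none fell, and the number that passed ran from 1 to 5 over the libraries left out. Vegfa, the vessel growth factor, had 32.4, 48.9 and 30.7 FPKM in Het APAP livers, against 39.2 and 33.8 FPKM in Het saline livers.

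Among lipid synthesis genes, 4 of 19 lipogenic genes fell and none rose. Their median was -0.31, -0.28 within the lane and -0.79 with no perfusion term. Of the 19, 10 lay lower in every Het APAP liver than in either Het saline liver, against 33.2% of all genes tested. The number that passed was 1 without Het saline 1 and 2 without Het saline 2. Dgat2, a triglyceride synthesis enzyme, had 74.5, 57.0 and 69.3 FPKM in Het APAP livers, against 159 and 142 FPKM in Het saline livers (log2 difference -1.23 ± 0.20, adjusted p = 0.00225). Srebf1, the lipogenic transcription factor, had 63.6, 9.12 and 29.7 FPKM in Het APAP livers, against 31.2 and 35.2 FPKM in Het saline livers. Of 25 cholesterol synthesis genes none passed (limma, 4 at an unadjusted p under 0.05), although 9 rose when WT saline 3 was left out of the fit, and the sign of the list median, 0.13, turned under some alternatives. Bile acid genes fell, 16 of 27, with 1 higher and a median of -1.31. Cyp7a1, which opens the classic route from cholesterol to bile acids, had 1.67, 0.477 and 0.578 FPKM in Het APAP livers, against 45.8 and 64.2 FPKM in Het saline livers (log2 difference -5.33 ± 0.81, adjusted p = 0.00249). Cyp8b1, which sets the cholic acid share, had 10.4, 4.78 and 12.8 FPKM in Het APAP livers, against 94.3 and 111 FPKM in Het saline livers (log2 difference -3.69 ± 0.48, adjusted p = 0.00113). Slc10a1, the bile acid importer NTCP, had 57.1, 22.7 and 39.8 FPKM in Het APAP livers, against 259 and 274 FPKM in Het saline livers (log2 difference -2.92 ± 0.45, adjusted p = 0.00173). Levels of all 3 genes were lowest in Het APAP 2. The member that rose was Abcc4, an export pump of the basolateral membrane, with 2.64, 1.31 and 2.10 FPKM in Het APAP livers, against 0.584 and 0.429 FPKM in Het saline livers (log2 difference 1.13 ± 0.20, adjusted p = 0.0028). Nr1h4, the bile acid receptor FXR, had 24.4, 19.3 and 24.1 FPKM in Het APAP livers, against 67.5 and 70.9 FPKM in Het saline livers (log2 difference -1.70 ± 0.23, adjusted p = 0.00103).

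Among genes that make NAD, 14 of 21 fell and 1 rose, with a median log2 difference of -1.02 and of -0.92 within the lane, and Nampt is 1 of the 14. Nmrk1, the nicotinamide riboside kinase of the second salvage route, had 4.11, 7.31 and 4.56 FPKM in Het APAP livers, against 19.9 and 19.0 FPKM in Het saline livers (log2 difference -1.95 ± 0.26, adjusted p = 0.00103). Naprt, which starts the nicotinic acid route, had 19.1, 13.3 and 15.8 FPKM in Het APAP livers, against 42.6 and 40.6 FPKM in Het saline livers (log2 difference -1.39 ± 0.20, adjusted p = 0.0013). In both, no treated liver reached the level of either control liver. Afmid, which acts early in the kynurenine route from tryptophan, had 7.99, 2.26 and 6.02 FPKM in Het APAP livers, against 46.6 and 45.4 FPKM in Het saline livers (log2 difference -3.07 ± 0.49, adjusted p = 0.00237). Tdo2, which opens it, had 407, 331 and 326 FPKM in Het APAP livers, against 803 and 862 FPKM in Het saline livers (log2 difference -1.25 ± 0.25, adjusted p = 0.00523). The salvage, nicotinic acid and kynurenine routes therefore each had members that fell. The gene that rose was Acmsd, which diverts the kynurenine route away from NAD, with 18.7, 19.8 and 12.6 FPKM in Het APAP livers, against 5.10 and 7.54 FPKM in Het saline livers (log2 difference 1.56 ± 0.47, adjusted p = 0.0373). Nnmt, which methylates nicotinamide, had 124, 232 and 103 FPKM in Het APAP livers, against 97.5 and 125 FPKM in Het saline livers and did not pass. The count in the list was 9 without Het saline 1 and 10 without Het saline 2. Of 13 enzymes that use NAD 3 fell and none rose, and 1 without Het saline 1 and 1 without Het saline 2 passed. Sirt3, the mitochondrial sirtuin, had 20.8, 14.3 and 12.1 FPKM in Het APAP livers, against 39.6 and 38.5 FPKM in Het saline livers (log2 difference -1.06 ± 0.18, adjusted p = 0.00267). Sirt1, the nuclear sirtuin, had 4.41, 5.83 and 4.81 FPKM in Het APAP livers, against 3.86 and 3.96 FPKM in Het saline livers. Parp1, which uses NAD at DNA breaks, had 12.0, 7.17 and 11.2 FPKM in Het APAP livers, against 10.5 and 8.75 FPKM in Het saline livers, and neither passed.

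Nuclear genes of the respiratory chain were lower by a small factor. Of 23 tested, 16 fell and none rose, with a median of -0.70, and 1 passed without Het saline 1 and 1 without Het saline 2. Uqcrfs1, the Rieske protein of complex III, had 71.8, 72.3 and 60.5 FPKM in Het APAP livers, against 134 and 139.6 FPKM in Het saline livers (log2 difference -1.02 ± 0.20, adjusted p = 0.00504). Ndufs1, of complex I, had 37.2, 26.5 and 33.1 FPKM in Het APAP livers, against 65.8 and 67.0 FPKM in Het saline livers (log2 difference -1.08 ± 0.25, adjusted p = 0.0107). In both genes no treated liver overlapped a control liver.

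**Figure D3:**
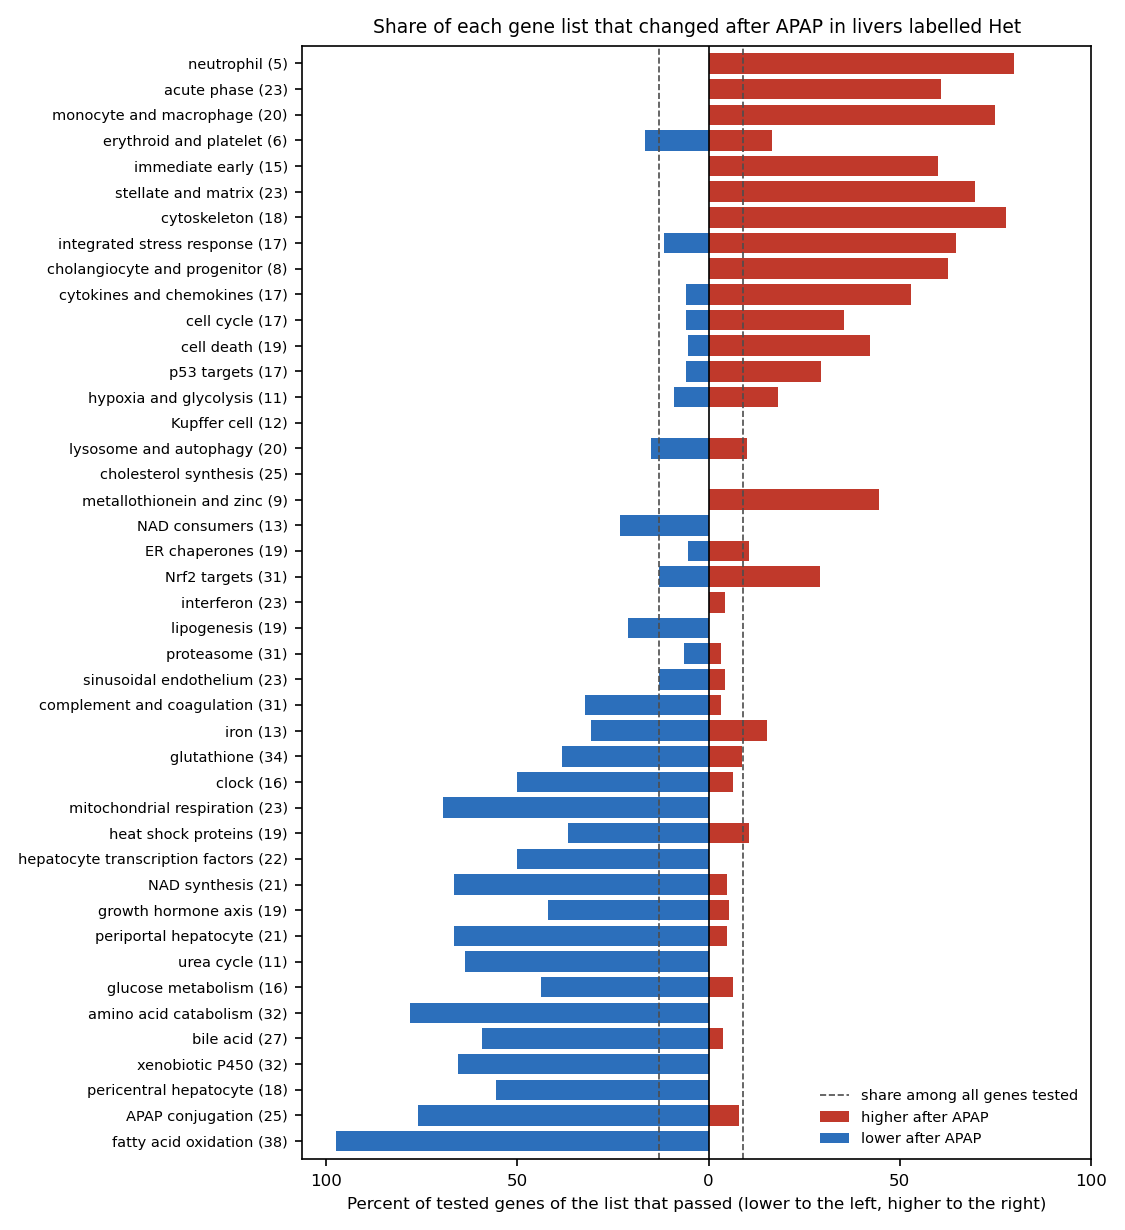
Percent of the tested genes of each list that passed, higher to the right and lower to the left, with the number tested in brackets and dashed lines at the shares over all genes tested, 9.07% and 13.1%. Acute phase, monocyte, cytoskeleton and matrix lists extend to the right, and fatty acid oxidation, amino acid, conjugation and P450 lists to the left.

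Genes of growth arrest and death rose in part. Among p53 targets, 5 of 17 rose and 1 fell. Cdkn1a, the cell cycle inhibitor p21, had 6.12, 19.4 and 14.8 FPKM in Het APAP livers, against 0.386 and 0.202 FPKM in Het saline livers (log2 difference 3.10 ± 0.43, adjusted p = 0.00136). Bax, a pro-apoptotic protein, had 18.0, 21.8 and 16.0 FPKM in Het APAP livers, against 8.94 and 8.14 FPKM in Het saline livers (log2 difference 1.08 ± 0.23, adjusted p = 0.00645). Mdm2, which degrades p53, had 11.6, 29.9 and 20.5 FPKM in Het APAP livers, against 8.46 and 7.63 FPKM in Het saline livers and did not pass (adjusted p = 0.148). Among cell death genes, 8 of 19 rose and 1 fell. Tnfrsf12a, the receptor of the cytokine TWEAK, had 39.7, 139.8 and 49.8 FPKM in Het APAP livers, against 5.38 and 5.71 FPKM in Het saline livers (log2 difference 3.45 ± 0.59, adjusted p = 0.00332). Mlkl, the executor of necroptosis, had 6.78, 6.86 and 5.82 FPKM in Het APAP livers, against 2.65 and 2.61 FPKM in Het saline livers (log2 difference 1.18 ± 0.19, adjusted p = 0.00183). The control livers were the lowest in each of these genes. The counts were 3 without Het saline 1 and 3 without Het saline 2 for p53 targets and 5 without Het saline 1 and 3 without Het saline 2 for cell death.

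Cell cycle genes were weakly expressed. Of 31 listed, 17 reached the filter of a mean of 1 FPKM over all libraries, and 6 of them rose and 1 fell. Mcm2, a subunit of the replicative helicase, had 2.45, 2.18 and 2.62 FPKM in Het APAP livers, against 1.07 and 0.52 FPKM in Het saline livers (log2 difference 1.05 ± 0.23, adjusted p = 0.00852). Pcna, the replication clamp, had 19.7, 24.5 and 19.2 FPKM in Het APAP livers, against 13.5 and 13.7 FPKM in Het saline livers (log2 difference 0.78 ± 0.22, adjusted p = 0.0242). Treated and control livers did not overlap in either gene. Ccnd1, cyclin D1, had 9.28, 7.95 and 6.40 FPKM in Het APAP livers, against 12.1 and 8.19 FPKM in Het saline livers and did not pass. Mki67, a marker of dividing cells, was under the filter with 0.48, 0.15 and 0.38 FPKM in Het APAP livers, against 0.239 and 0.198 FPKM in Het saline livers. Cell cycle genes that passed numbered 3 without Het saline 1 and 0 without Het saline 2. Immediate early genes rose in 9 of 15, with none lower and a median of 1.54, and of 1.06 within the lane. Junb had 17.2, 42.4 and 27.1 FPKM in Het APAP livers, against 4.10 and 3.64 FPKM in Het saline livers (log2 difference 2.65 ± 0.56, adjusted p = 0.00891). Klf6 had 11.6, 35.2 and 21.4 FPKM in Het APAP livers, against 3.02 and 3.29 FPKM in Het saline livers (log2 difference 2.43 ± 0.52, adjusted p = 0.00906). Socs3, the feedback inhibitor of STAT3, had 16.8, 20.8 and 15.8 FPKM in Het APAP livers, against 1.96 and 3.01 FPKM in Het saline livers (log2 difference 2.84 ± 0.70, adjusted p = 0.0182). Het APAP 2 was the highest liver in all 3 genes, and Jun and Myc did not pass. The count was 4 without Het saline 1 and 2 without Het saline 2.

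Monocyte and macrophage transcripts rose. Of 20 monocyte and macrophage genes 15 rose and none fell, with a median of 2.04 and of 1.63 within the lane. S100a4 had 18.3, 31.4 and 27.0 FPKM in Het APAP livers, against 0.758 and 0.851 FPKM in Het saline livers (log2 difference 3.94 ± 0.56, adjusted p = 0.00163). Chil3, a chitinase-like protein of activated macrophages, had 13.8, 54.2 and 27.1 FPKM in Het APAP livers, against 0.441 and 0.394 FPKM in Het saline livers (log2 difference 4.18 ± 0.68, adjusted p = 0.0028). Ccr2, the receptor that brings monocytes to CCL2, had 4.29, 7.71 and 8.31 FPKM in Het APAP livers, against 0.781 and 0.877 FPKM in Het saline livers (log2 difference 2.02 ± 0.46, adjusted p = 0.0105). All 20 genes lay higher in every Het APAP liver than in either Het saline liver, against 25.4% of all genes tested. A globin transcript differed between the treated livers. Hbb-bs, a beta globin, was at 26.6 FPKM in the perfused Het APAP 1, against 973 and 341 FPKM in Het APAP 2 and Het APAP 3. The part of blood in the monocyte values of those 2 livers was not tested. The ligand of CCR2 moved too. Ccl2 had 17.8, 23.9 and 38.2 FPKM in Het APAP livers, against 0.93 and 0.378 FPKM in Het saline livers (log2 difference 4.16 ± 0.73, adjusted p = 0.00409). Cxcl1, which attracts neutrophils, had 47.1, 83.0 and 53.7 FPKM in Het APAP livers, against 9.10 and 7.63 FPKM in Het saline livers (log2 difference 3.05 ± 0.82, adjusted p = 0.0255). Il1b, interleukin 1 beta, had 4.37, 5.91 and 7.63 FPKM in Het APAP livers, against 2.45 and 4.70 FPKM in Het saline livers and did not pass. In the cytokine list 9 of 17 rose and 1 fell. The exception was Cxcl12, which holds stem and immune cells in place, with 34.0, 28.3 and 33.4 FPKM in Het APAP livers, against 63.9 and 73.8 FPKM in Het saline livers. Mmp12, the macrophage elastase, had 22.7, 17.2 and 30.7 FPKM in Het APAP livers, against 0.105 and 0.293 FPKM in Het saline livers (log2 difference 4.87 ± 0.90, adjusted p = 0.00554). The counts were 8 without Het saline 1 and 7 without Het saline 2 for monocytes and 4 without Het saline 1 and 3 without Het saline 2 for cytokines.

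None of the 12 Kupffer cell genes passed (limma, 2 at an unadjusted p under 0.05). Clec4f, found in Kupffer cells and not in fresh monocytes, had 30.4, 21.1 and 20.5 FPKM in Het APAP livers, against 49.4 and 54.7 FPKM in Het saline livers (adjusted p = 0.127). With no perfusion term Clec4f passed (log2 difference -1.10, adjusted p = 0.0417), the only gene of the list to do so. Timd4, a receptor for dying cells, had 3.05, 1.93 and 1.87 FPKM in Het APAP livers, against 3.12 and 4.75 FPKM in Het saline livers. Marco, a scavenger receptor, had 40.2, 39.6 and 74.1 FPKM in Het APAP livers, against 6.05 and 17.6 FPKM in Het saline livers. The direction was lower for Clec4f in each treated liver and higher for Marco, and the list median of 0.16 changed sign within the lane. A test of the monocyte list against the Kupffer list was not made.

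Neutrophil transcripts were low in number but steep. Of 15 genes 5 reached the filter and 4 of them rose. The number that passed was 2 without Het saline 1 and 2 without Het saline 2, and 1 when lane replaced perfusion. S100a8, a subunit of calprotectin, had 35.1, 205 and 83.4 FPKM in Het APAP livers, against 1.44 and 1.37 FPKM in Het saline livers (log2 difference 5.45 ± 1.37, adjusted p = 0.023). S100a9, its partner, had 37.2, 235 and 108 FPKM in Het APAP livers, against 1.15 and 0.462 FPKM in Het saline livers (log2 difference 6.10 ± 1.39, adjusted p = 0.0161). Csf3r, the G-CSF receptor, had 5.13, 4.36 and 7.84 FPKM in Het APAP livers, against 0.77 and 0.5 FPKM in Het saline livers (log2 difference 2.16 ± 0.44, adjusted p = 0.00577). Het APAP 2 was the highest liver for both calprotectin subunits. Summed over the list the level was 92.6, 472 and 221 FPKM in Het APAP livers, against 4.36 and 2.72 FPKM in Het saline livers. S100a8 and S100a9 made up most of that sum in each Het APAP liver. The granule genes Mpo, Elane, Ngp, Camp and Ltf were under 1 FPKM in every Het liver. Ly6g, a defining neutrophil marker, was near 0 throughout, with 0.116, 0.394 and 0 FPKM in Het APAP livers, against 0 and 0 FPKM in Het saline livers. Perfusion removes blood, and the livers differ in it. Hbb-bs, a beta globin of red blood cells, had 26.6, 973 and 341 FPKM in Het APAP livers, against 20.9 and 8.37 FPKM in Het saline livers. For Hbb-bs the 2 livers without perfusion were high and the perfused Het APAP 1 was near the controls. Alas2, another red blood cell marker, was close in all 3 Het APAP livers, at 9.44, 9.73 and 9.69 FPKM. Both Het saline livers were higher in Alas2, at 26.4 and 26.2 FPKM, and it fell (log2 difference -1.04 ± 0.29, limma adjusted p = 0.0254). Pf4, a platelet chemokine, had 3.84, 17.7 and 16.5 FPKM in Het APAP livers, against 0.629 and 1.19 FPKM in Het saline livers and rose (adjusted p = 0.0428), in a list of which 0 to 5 genes passed over the libraries left out. In Het APAP 1, perfused like the controls, S100a8 and S100a9 were the lowest of the treated livers and still above both controls, with differences of 3.91 and 4.43 on the log2 scale. The part of blood in the values of Het APAP 2 and Het APAP 3 was not tested.

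**Figure D4:**
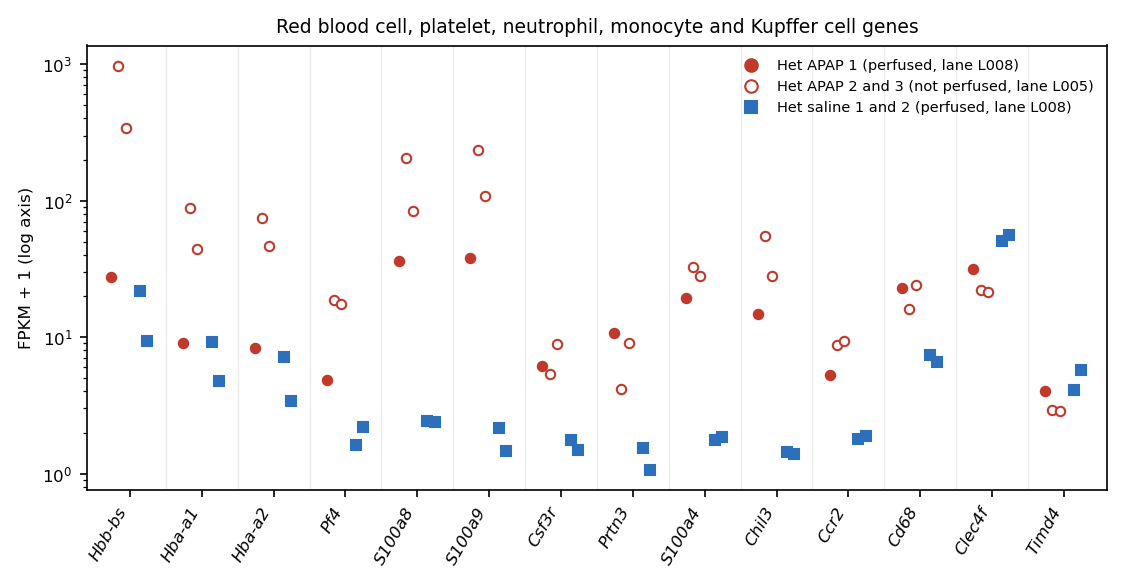
FPKM + 1 on a log axis for red blood cell, platelet, neutrophil, monocyte and Kupffer cell genes, 1 point per liver, Het APAP as circles (filled for the perfused liver) and Het saline as squares. Globin genes are high in the 2 livers without perfusion, whereas neutrophil and monocyte genes are higher in all 3 Het APAP livers.

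Matrix and cytoskeleton genes rose together. Of 23 stellate cell and matrix genes 16 rose and none fell, with a median of 1.50 and of 1.34 within the lane. Tnc, tenascin C, a matrix protein of wounds, had 7.54, 10.5 and 10.9 FPKM in Het APAP livers, against 0.253 and 0.282 FPKM in Het saline livers (log2 difference 3.05 ± 0.35, adjusted p = 0.000462). Col4a1, a basement membrane collagen, had 31.4, 35.6 and 43.4 FPKM in Het APAP livers, against 5.18 and 4.79 FPKM in Het saline livers (log2 difference 2.67 ± 0.31, adjusted p = 0.000462). Het APAP 1 was the lowest treated liver in both. Timp1, an inhibitor of metalloproteinases, had 11.2, 13.6 and 12.8 FPKM in Het APAP livers, against 0.1 and 0.245 FPKM in Het saline livers (log2 difference 3.70 ± 0.54, adjusted p = 0.00172). Acta2, the actin of activated stellate cells, had 11.7, 14.0 and 17.5 FPKM in Het APAP livers, against 3.17 and 1.54 FPKM in Het saline livers (log2 difference 2.37 ± 0.43, adjusted p = 0.00396). Markers of the resting stellate cell did not rise. Lrat, which stores vitamin A as ester, had 3.81, 1.82 and 1.51 FPKM in Het APAP livers, against 7.11 and 8.71 FPKM in Het saline livers (adjusted p = 0.0542). Reln, reelin, had 4.52, 4.88 and 5.55 FPKM in Het APAP livers, against 6.73 and 9.07 FPKM in Het saline livers (adjusted p = 0.0652). The 2 kinds of marker thus lay on opposite sides, and the lower level of the resting markers did not pass. Among 18 cytoskeleton genes 14 rose and none fell, with a median of 1.47, and of 0.92 within the lane. Anxa2 had 73.1, 111 and 117 FPKM in Het APAP livers, against 5.72 and 8.90 FPKM in Het saline livers (log2 difference 3.92 ± 0.54, adjusted p = 0.00156). Vim, vimentin, had 42.2, 52.96 and 60.8 FPKM in Het APAP livers, against 8.11 and 9.31 FPKM in Het saline livers (log2 difference 2.70 ± 0.49, adjusted p = 0.00396). Thbs1, thrombospondin, a protein released in wounds, had 16.3, 41.1 and 26.8 FPKM in Het APAP livers, against 0.25 and 0.331 FPKM in Het saline livers (log2 difference 4.38 ± 0.73, adjusted p = 0.00325). Genes that passed numbered 9 without Het saline 1 and 7 without Het saline 2 for matrix and 8 without Het saline 1 and 5 without Het saline 2 for cytoskeleton.

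Keratins of the hepatocyte rose. Krt8 had 462, 996 and 571 FPKM in Het APAP livers, against 107 and 123 FPKM in Het saline livers (log2 difference 2.47 ± 0.37, adjusted p = 0.00149). Krt18, its partner, had 477, 1100.0 and 619 FPKM in Het APAP livers, against 132 and 139 FPKM in Het saline livers (log2 difference 2.19 ± 0.36, adjusted p = 0.00216). Both keratins were highest in Het APAP 2. Sox9, a factor of bile duct and progenitor-like cells, had 1.80, 3.96 and 4.25 FPKM in Het APAP livers, against 0.204 and 0.325 FPKM in Het saline livers (log2 difference 1.38 ± 0.24, adjusted p = 0.00289). Spp1, osteopontin, had 82.4, 150.5 and 163 FPKM in Het APAP livers, against 14.2 and 26.4 FPKM in Het saline livers (log2 difference 2.75 ± 0.79, adjusted p = 0.034). In all, 5 of 8 tested genes of that list rose, 2 of them the hepatocyte keratins. The defining duct markers Krt19, Krt7 and Epcam were under the filter. Krt19 had 0.483, 0.539 and 1.30 FPKM in Het APAP livers, against 1.01 and 0.623 FPKM in Het saline livers. Of 23 endothelial genes 1 rose and 3 fell, near or under the shares over all genes tested, 9.07% and 13.1%. With no perfusion term 3 rose and 5 fell, and 8 in all passed without Het APAP 1. Cdh5, VE-cadherin, had 14.9, 18.6 and 25.0 FPKM in Het APAP livers, against 6.72 and 6.50 FPKM in Het saline livers (log2 difference 1.34 ± 0.24, adjusted p = 0.0029). Wnt2, the Wnt ligand that sinusoidal cells send to pericentral hepatocytes, had 0.421, 0.691 and 0.553 FPKM in Het APAP livers, against 2.19 and 1.89 FPKM in Het saline livers (log2 difference -1.08 ± 0.18, adjusted p = 0.00212). Clec4g, a sinusoidal lectin, had 19.9, 11.0 and 9.38 FPKM in Het APAP livers, against 45.4 and 43.0 FPKM in Het saline livers (log2 difference -1.22 ± 0.24, adjusted p = 0.00516). Of 15 lymphocyte genes 1 reached the filter, Ighm, and it did not pass. Genes of the duct list that passed numbered 3 without Het saline 1 and 3 without Het saline 2.

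Regulators of hepatocyte identity fell in part. Of 22 transcription factors 11 fell and none rose, with a median of -0.84. Cebpa had 35.2, 23.9 and 35.9 FPKM in Het APAP livers, against 69.5 and 92.9 FPKM in Het saline livers (log2 difference -1.51 ± 0.28, adjusted p = 0.00345). Onecut1 had 2.37, 2.95 and 5.30 FPKM in Het APAP livers, against 8.24 and 30.9 FPKM in Het saline livers (adjusted p = 0.011), and its 2 control livers were themselves far apart. Hnf4a was not among those that fell (log2 difference -0.37 ± 0.23, adjusted p = 0.278). In the growth hormone axis 8 of 19 fell and 1 rose, with a median of -1.09. Ghr, the receptor, had 76.3, 51.5 and 52.2 FPKM in Het APAP livers, against 193 and 176 FPKM in Het saline livers (log2 difference -1.52 ± 0.21, adjusted p = 0.00119). Hsd3b5, a male-specific liver gene in mice, had 2.76, 0.954 and 1.51 FPKM in Het APAP livers, against 102 and 142 FPKM in Het saline livers (log2 difference -4.88 ± 0.69, adjusted p = 0.00178, and -5.53 with no perfusion term). That level was a small part of the control level in all 3 treated livers. Igfbp1, which binds IGF1 and is raised in fasting and stress, was the gene that rose, with 99.8, 233 and 117 FPKM in Het APAP livers, against 16.6 and 5.11 FPKM in Het saline livers (log2 difference 4.94 ± 1.49, adjusted p = 0.0449). With no perfusion term Igfbp1 did not pass (log2 difference 3.76, limma adjusted p = 0.0985), and 0 genes of the list rose and 10 fell. Igf1 itself had 169.7, 122 and 126 FPKM in Het APAP livers, against 232 and 201 FPKM in Het saline livers and did not pass. Among clock genes 8 of 16 fell and 1 rose. Arntl, the activator BMAL1, had 2.85, 4.24 and 3.35 FPKM in Het APAP livers, against 0.887 and 0.926 FPKM in Het saline livers (log2 difference 1.17 ± 0.23, adjusted p = 0.00444). Dbp, an output of the clock, had 6.14, 0.911 and 2.46 FPKM in Het APAP livers, against 14.7 and 16.9 FPKM in Het saline livers (log2 difference -2.12 ± 0.57, adjusted p = 0.024). Activator and output lay on opposite sides of the controls. The hour of day of the collection is not given in the sources used here. Counts were 8 without Het saline 1 and 5 without Het saline 2 for transcription factors and 2 without Het saline 1 and 2 without Het saline 2 for the clock.

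Of 31 complement and coagulation genes 10 fell and 1 rose, with a median of -0.43. F9, coagulation factor IX, had 42.8, 37.3 and 38.6 FPKM in Het APAP livers, against 79.7 and 84.9 FPKM in Het saline livers (log2 difference -0.99 ± 0.20, adjusted p = 0.00491). Genes of that list that passed numbered 3 without Het saline 1 and 4 without Het saline 2. Fth1, ferritin heavy chain, had 1014, 1309 and 1199.5 FPKM in Het APAP livers, against 421 and 459 FPKM in Het saline livers (log2 difference 1.16 ± 0.24, adjusted p = 0.00595). Tfrc, the transferrin receptor, had 10.8, 11.0 and 7.49 FPKM in Het APAP livers, against 29.2 and 27.8 FPKM in Het saline livers (log2 difference -1.62 ± 0.30, adjusted p = 0.00345). The iron storage gene thus rose and the iron uptake gene fell. Of 13 iron genes 2 rose and 4 fell, and 2 without Het saline 1 and 2 without Het saline 2 passed. Shares near or under those of all genes were seen in 3 further lists. In the interferon list 1 of 23 rose, in the proteasome list 1 of 31 rose and 2 fell, and in the lysosome list 2 of 20 rose and 3 fell. Over the libraries left out, the number that passed ran from 0 to 3 for interferon, from 0 to 8 for the proteasome and from 1 to 6 for the lysosome. Psmd1, a proteasome subunit, had 35.1, 29.3 and 28.2 FPKM in Het APAP livers, against 49.2 and 47.4 FPKM in Het saline livers. Isg15, an interferon-induced ubiquitin-like protein, had 15.8, 20.2 and 21.7 FPKM in Het APAP livers, against 8.03 and 9.59 FPKM in Het saline livers, and neither passed.

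The question whether the response of livers labelled Het differs from that of other labels was put to the same fit. No gene passed for the difference between the Het and WT responses (limma, 0.0% of 11090 genes, 916 at an unadjusted p under 0.05, smallest adjusted p 0.224). The 5 genes with the smallest p were Itpr2, Rfx5, Fam129b, E2f8 and Esr1, with differences of -1.26, -1.24, 1.98, -1.40 and -1.51. In the WT livers themselves 615 genes passed, and 532 of the 2460 Het genes passed there too with the same sign. The list median was larger in size in livers labelled Het than in livers labelled WT for 36 of the 44 lists, with no test of it, for example for fatty acid oxidation, at -1.90 in Het and -1.05 in WT, for P450 genes, at -1.50 in Het and -0.63 in WT, and for monocyte genes, at 2.04 in Het and 1.20 in WT, while no single gene of these lists passed for the difference. It was smaller for the other lists, such as the growth hormone axis, at -1.09 in Het and -1.13 in WT, ER chaperones, at -0.01 in Het and 0.78 in WT, and cholesterol synthesis, at 0.13 in Het and 0.49 in WT. All 3 WT APAP livers were unperfused and in lane L005, and no WT saline liver was in that lane. Genotype label and lane therefore cannot be told apart here. WT saline 1 and WT saline 2 were perfused, and the share of perfused livers fell equally from saline to APAP in both labels. The perfusion term thus did not move this difference, whose median over all genes tested was -0.04 with and without it. With array weights, which let each library count by its own spread, 431 genes passed.

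Against livers labelled OE, 2 genes passed for the difference in response, 0.018% of genes tested. Akr1c14 (chr13:4049011-4090688, plus strand), a hydroxysteroid dehydrogenase, had 39.6, 30.5 and 37.3 FPKM in Het APAP livers, against 231 and 222 FPKM in Het saline livers. Its response was -2.70 in livers labelled Het and -0.32 in livers labelled OE, a difference of -2.38 ± 0.28 (adjusted p = 0.0198). Nat8f5 (chr6:85817218-85820972, minus strand), a member of the NAT8 family of N-acetyltransferases, had 2.45, 2.83 and 2.27 FPKM in Het APAP livers, against 25.7 and 25.6 FPKM in Het saline livers. Its response was -3.33 in livers labelled Het and -0.30 in livers labelled OE, a difference of -3.03 ± 0.42 (adjusted p = 0.0455). The WT responses lay between, at -1.50 for Akr1c14 and -1.93 for Nat8f5. The count is fragile. Neither gene passed in 8 of the 15 fits that left out 1 library, among them those without Het saline 1 and without Het saline 2, and 471 genes passed without Het APAP 1. In livers labelled OE no gene passed for APAP itself (limma, 535 at an unadjusted p under 0.05). The OE liver given 300 mg/kg APAP, of lane L004, lay at -13.7 on the second principal component. OE saline 2 and OE APAP 1, of the same lane, lay apart from all other libraries there, at 38.7 and 38.9. For the difference 2 genes passed without them, only 1 of which was among the 2 above.

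**Figure D5:**
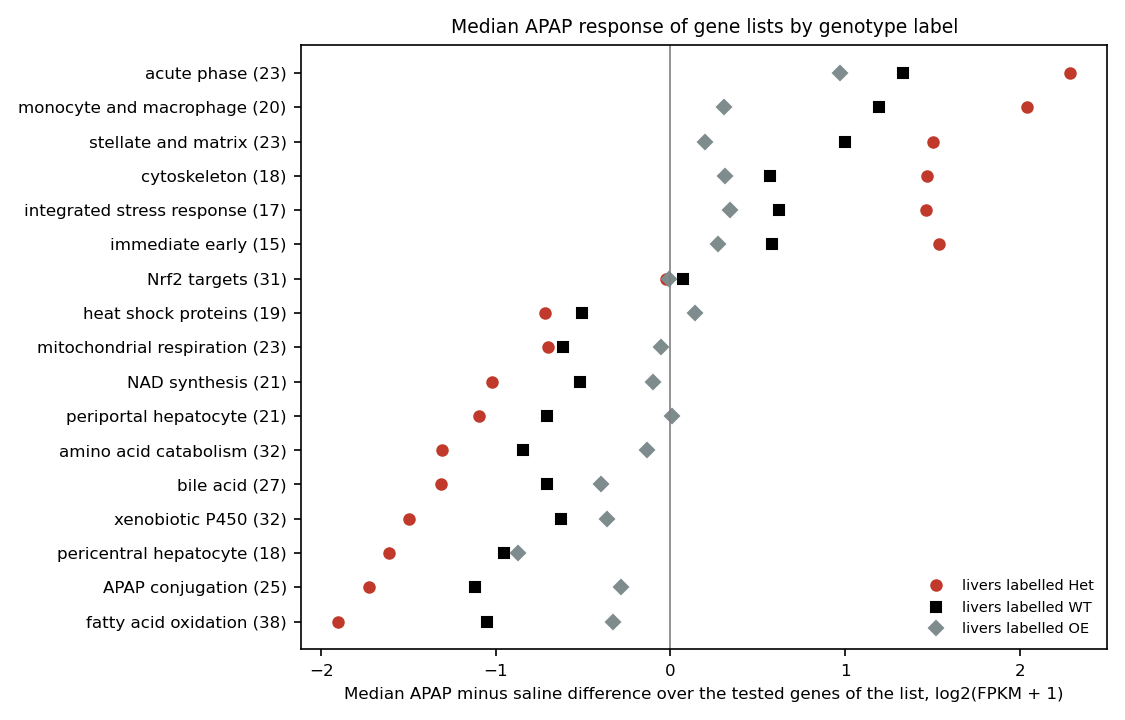
Median APAP minus saline difference on the log2(FPKM + 1) scale over the tested genes of 17 lists (number tested in brackets) in livers labelled Het (circles), WT (squares) and OE (diamonds). The Het medians lie farthest from 0 for most lists, with WT between, and the differences between labels passed for no gene against WT and for 2 genes against OE.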

How the data were processed

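RNA of 17 mouse livers had been sequenced in pairs after a stranded total RNA preparation, per the labels' protocols. The submitters' processing notes name bcl2fastq 2.17.1.14, TopHat2 2.0.9, Cufflinks 2.2.1, Cuffdiff and the build GRCm38.p5. The authors deposited 1 table of FPKM values for 46073 genes, made with those tools per the submitters' processing notes. That the unit is FPKM is inferred from the tools and the values, since no header names it, and no source says how strand was handled. The number of reads per library is unknown, so no counting interval can be given. Genes at 0 in every library numbered 13810.

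Values were analysed as log2(FPKM + 1) for genes whose mean over all 17 libraries reached 1 FPKM. A total of 102 genes listed at 0 throughout a group but above 10 FPKM elsewhere, or next to such a gene, were left out, a rule chosen after seeing the data, and 11090 genes were tested. The fit used limma (version 3.58.1, trended and robust prior; statmod version 1.5.0; R version 4.3.3) with 8 label groups and perfusion as terms, leaving 8 residual degrees of freedom. A liver given 300 mg/kg APAP (OE) and a WT saline liver of the intragastric route were groups of their own. Genes passed at a Benjamini-Hochberg adjusted p under 0.05, and errors are standard errors (SE). The procedure was tested on simulated data. Members and lists were chosen with earlier results of these data known. Named were the 15 genes with the largest change in each direction (at least 5 FPKM in the higher group, no overlap), the 6 with the smallest p in each of 44 lists and 44 preset genes. Other list members, mostly ones that did not pass, were chosen after their values were seen. A few genes are not reported here. Promoters came from RefSeq for GRCm38.p6. Replicates were numbered in accession order. Alternatives changed the normalization, pseudocount, filter, covariate, prior, weights, left-out genes and libraries.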

Additional observations from a re-analysis of the deposited data

Results flagged for a closer look

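Akr1c14 was singled out because its response to APAP differed between livers labelled Het and livers labelled OE, by -2.38 on the log2 scale (limma, adjusted p = 0.0198). Every Het APAP liver lay below both Het saline livers.

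Nat8f5 was singled out for the same reason, with a difference of -3.03 between the Het and OE responses (limma, adjusted p = 0.0455). Neither difference passed in 8 of the 15 fits that left out 1 library, those without Het saline 1 and without Het saline 2 among them, and only 1 of the 2 passed with no perfusion term.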

How the results depend on the processing

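With all libraries, 2460 genes passed for APAP in livers labelled Het. The count was 839 with lane in place of perfusion, 887 with the 5 Het libraries alone and a perfusion term, and 634 with Het APAP limited to the perfused liver, each of which leaves fewer samples or degrees of freedom. It ran from 890 to 2603 with 1 library left out. For the difference between Het and WT responses, 0 genes passed with all libraries and 0 to 2 with 1 left out, 4 with no filter, 431 with array weights, 30 with the genes at 0 kept, 1 with the filter over the 5 Het libraries and 5 with Het APAP limited to the perfused liver. The lane fit gives no value for it, because lane and group leave it not estimable. For the difference between Het and OE responses, 2 genes passed with all libraries and 0 to 471 with 1 left out, 1 with a pseudocount of 5, 4 with no filter, 5 with a mean of at least 5 FPKM, 4 with no perfusion term, 12 with lane in its place, 5 with array weights, 53 with the genes at 0 kept, 4 with the filter over the 5 Het libraries and 8 with Het APAP limited to the perfused liver. The causes were not tested. Leaving out OE saline 2 and OE APAP 1 together was chosen after seeing the data. Of the 127 genes named above that passed, 35 lost the call without Het saline 1, 45 without Het saline 2, 47 with lane in place of perfusion and 61 of 126 with Het APAP limited to the perfused liver, and none changed direction under any alternative run. With 2 control livers, no read counts and perfusion tied to lane, precision rests on the spread shared with the other groups. No paired analysis was possible because the labels give no replicate numbers shared between groups, and those used here are in accession order.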
